A study of Mus musculus with 20 samples.

Results

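Interferon-stimulated genes are the genes that cells switch on when an interferon reaches them. A set of 50 such genes was taken by gene symbol from the 54532 genes of the deposited count table. All 50 were found, and all 50 had enough counts to be tested in kidney, in liver and in the comparison of the tissues. They were followed in kidney and liver of mice labelled as lacking Lxrα and of wild-type mice.

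The study sequenced bulk RNA of kidney and liver of male mice of the C57BL/6 strain, in 20 libraries that form 4 groups of 5. By genotype and title number the libraries were taken as 10 mice, each with a kidney and a liver. One group is labelled Lxrα-/- and is called labelled knockout here, and the other is labelled wild type. The labels name no treatment, and the age, the diet, the allele and the littermate status are not given in the sources used here. Labelled knockout mice are numbered 1 to 5 and wild-type mice 1, 3, 4, 5 and 6 in the titles. Nr1h3, which encodes the oxysterol receptor Lxrα, was higher in libraries labelled knockout: 126 ± 21.7 CPM against 52.1 ± 2.27 CPM in wild-type kidney, and 167 ± 18 CPM against 98.2 ± 13.6 CPM in wild-type liver (mean ± SD, n = 5 each). Counts per gene do not show which part of the gene was read, so every direction below is by the genotype as labelled.

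Total counts ran from 23421561 to 35376342 per library. Of these, genes encoded in the mitochondrial genome took 12.6% to 21.1% in 8 of the 10 kidney libraries, 7.21% in wild-type kidney 1 and 50.8% in wild-type kidney 3. In kidney the summed proximal tubule markers stood at 5469.8 to 8450.1 CPM in labelled knockout and 4565 to 7361 CPM in wild-type libraries. In liver the summed hepatocyte markers stood at 46414 to 82894 CPM in labelled knockout and 86565 to 115444 CPM in wild-type libraries. CPM is a gene's count scaled to the size of its library after TMM scaling, which allows for a few genes that take a large share of the counts. Fold changes are on the log2 scale, labelled knockout over wild type, each with a standard error (SE). A gene is called where the p of edgeR's quasi-likelihood test, adjusted over all genes tested in that comparison, is under 0.05.

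Type I and type III interferons bind receptors on the cell surface, and the kinases Jak1 and Tyk2 then activate transcription factors. A complex that holds Stat2 and Irf9 enters the nucleus and binds the interferon-stimulated response element (ISRE) in promoters. Type II interferon acts through the gamma-activated site (GAS). The genes switched on in this way encode sensors of viral nucleic acid, proteins that block viral replication, and enzymes that attach or remove the ubiquitin-like protein Isg15. Liver and kidney cells express many of them at a low level without infection.

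The promoters of 5 of the genes are shown because they hold the core letters of the element through which type I interferon acts. They are 250 bases before to 50 bases after the annotated start, from RefSeq on build GRCm38.p6, read along the strand of the gene. Slfn9, Ifi44, Gbp3 and Oas1a are the genes with the smallest product of the kidney and liver p among those whose window holds the core letters of the element. Trim25 has the largest product of all genes with a window. The windows are chr11:82991781-82992080 (minus strand) for Slfn9, chr3:151749861-151750160 (minus) for Ifi44, chr3:142559794-142560093 (plus) for Gbp3, chr5:120907476-120907775 (minus) for Oas1a and chr11:88999153-88999452 (plus) for Trim25. Capitals mark the core letters GAAANNGAA, or TTCNNTTTC where they run on the other strand.
Slfn9: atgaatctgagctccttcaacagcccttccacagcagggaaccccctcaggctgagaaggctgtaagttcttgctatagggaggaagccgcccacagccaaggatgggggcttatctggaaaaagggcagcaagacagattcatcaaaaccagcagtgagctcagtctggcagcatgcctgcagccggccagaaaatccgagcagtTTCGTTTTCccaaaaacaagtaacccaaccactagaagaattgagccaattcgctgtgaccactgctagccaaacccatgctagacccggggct
Ifi44: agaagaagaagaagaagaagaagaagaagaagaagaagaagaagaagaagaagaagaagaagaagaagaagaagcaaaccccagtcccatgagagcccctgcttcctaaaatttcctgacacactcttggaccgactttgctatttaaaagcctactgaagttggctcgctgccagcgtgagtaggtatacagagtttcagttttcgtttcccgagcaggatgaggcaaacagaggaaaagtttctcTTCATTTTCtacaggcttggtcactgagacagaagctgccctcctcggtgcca
Gbp3: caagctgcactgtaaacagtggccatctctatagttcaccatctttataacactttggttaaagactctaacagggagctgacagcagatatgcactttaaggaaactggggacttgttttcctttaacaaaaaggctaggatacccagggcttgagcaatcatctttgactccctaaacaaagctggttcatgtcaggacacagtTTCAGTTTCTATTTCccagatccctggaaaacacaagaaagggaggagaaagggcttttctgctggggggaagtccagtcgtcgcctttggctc
Oas1a: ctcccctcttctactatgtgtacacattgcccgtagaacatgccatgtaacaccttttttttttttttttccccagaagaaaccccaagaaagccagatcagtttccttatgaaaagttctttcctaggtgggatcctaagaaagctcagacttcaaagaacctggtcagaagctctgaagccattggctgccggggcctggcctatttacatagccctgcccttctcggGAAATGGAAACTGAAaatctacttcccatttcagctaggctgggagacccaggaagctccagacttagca
Trim25: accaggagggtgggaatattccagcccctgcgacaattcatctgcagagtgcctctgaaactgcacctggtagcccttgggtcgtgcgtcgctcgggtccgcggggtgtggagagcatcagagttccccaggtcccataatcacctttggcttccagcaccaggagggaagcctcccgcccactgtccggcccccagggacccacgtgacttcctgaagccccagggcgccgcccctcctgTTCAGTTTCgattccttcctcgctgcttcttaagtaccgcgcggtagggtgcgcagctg

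In Slfn9 the match begins 44 bases before the start, in Gbp3 a pair of overlapping matches begins 44 and 38 bases before it, and in Oas1a a pair begins 20 and 14 bases before it. The matches of Ifi44 and Trim25 begin 3 and 9 bases before the start. Trim25, which was called in neither tissue, thus holds the same letters as the other 4 genes.

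A promoter window was at hand for 38 of the 50 genes. The ISRE core, GAAANNGAA on either strand, was in the windows of 25 of the 38 (65.8%), against 2638 of 27025 genes with a window (9.76%). The letters TTCNNNGAA of the GAS, which read the same on both strands, were in 8 of the 38 (21.1%), against 2582 of the 27025 genes (9.55%). At distinct genome positions there were 43 ISRE matches, of which 32 began within 150 bases before a start of the gene and 19 overlapped another one. Of the 9 GAS matches, 1 overlapped an ISRE match. The 25 genes with the ISRE core had a median log2 fold change of -1.16 in kidney and -0.97 in liver, and 12 and 20 of them were called. The 13 genes with a window and no match had medians of -0.94 and -0.42, with 7 and 8 called, and the 12 genes without a window -1.58 and -0.74, with 10 and 6 called. These are counts of letters, and a window without a match says nothing of what binds there.

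**Figure D1:**
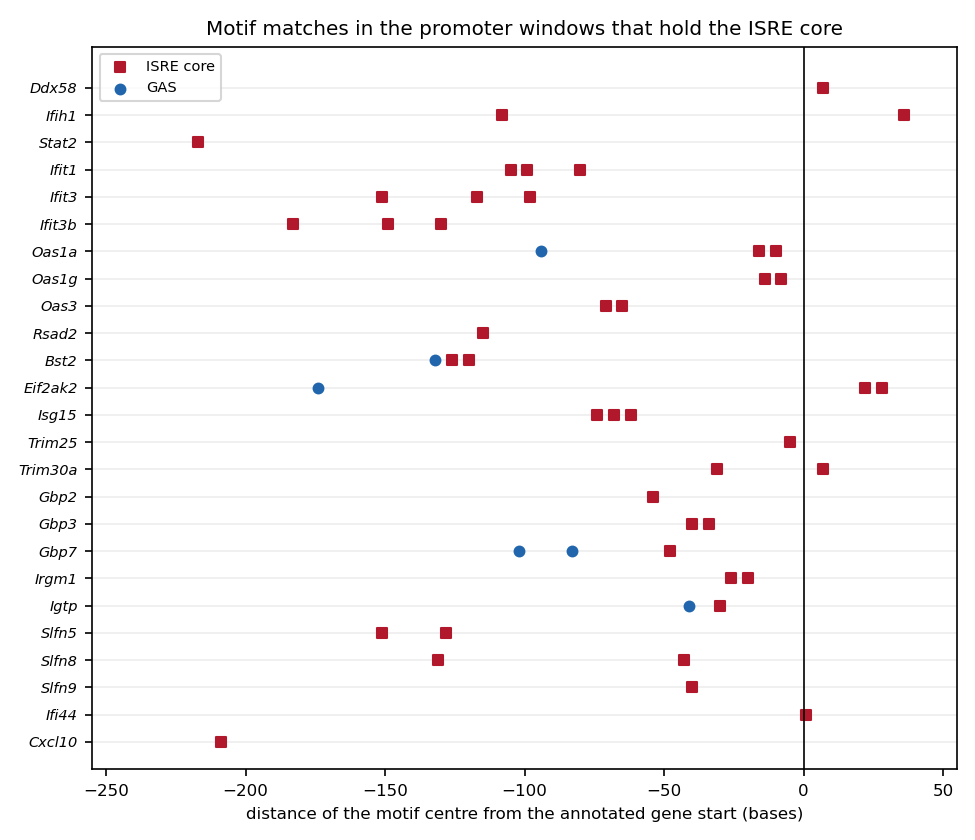
Position of each match to the ISRE core (squares) and the GAS (circles) relative to the annotated gene start, in bases, for the 25 genes whose promoter window holds the ISRE core. A gene with more than 1 annotated start has its matches drawn relative to each, so a site can appear more than once. The 43 distinct ISRE matches include 32 that begin within 150 bases before a start.

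The first question is whether the genes differed by labelled genotype in each tissue. In kidney 29 of the 50 were lower in labelled knockout than in wild-type libraries and 0 were higher, and in liver 34 were lower and 0 were higher (edgeR, adjusted p). Among all genes tested, 1.87% were called lower and 0.394% higher in kidney, and 4.08% lower and 1.94% higher in liver. The 50 genes were chosen with earlier results of these data known. The contrasts with all genes, here and below, are therefore descriptions and not tests of the set. The log2 fold change was below 0 for 49 of the 50 in kidney and for 48 in liver. The median was -1.20 in kidney, beside -0.07 over all 16500 genes tested, and -0.82 in liver, beside -0.0032 over 14822 genes. At an unadjusted p under 0.05, edgeR had 44 genes lower in kidney and 42 in liver, and again 0 higher. The share of all genes at that threshold is not given here. DESeq2 called 38 lower in kidney and 37 in liver, where it called 5.12% and 5.87% of all genes lower. Limma voom called 43 and 40 lower, beside 8.18% and 5.14% of all genes, and neither tool called a gene of the 50 higher. In these bulk samples, fewer cells of a type and less RNA per cell cannot be told apart.

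For 33 genes in kidney and 32 in liver, all 5 labelled knockout libraries lay below all 5 wild-type libraries, which held for 4.13% and 4.53% of all genes tested. The number of genes called lower in kidney, 29 with all libraries, depended on which library was left out and ran from 13 to 31. It was 13 without labelled knockout kidney 4 and 18 without labelled knockout kidney 1 or 5. The calls over all genes tested fell as well. They were 2.26% with all libraries, 0.589% without labelled knockout kidney 4, and 0.773% and 0.62% without labelled knockout kidneys 1 and 5. Of the 29 calls, 12 held whichever library was left out. Those 12 were Dhx58, Zbp1, Irf7, Ifit1, Oas1a, Oas3, Oasl1, Bst2, Isg15, Slfn8, Slfn9 and Rtp4. In liver the number called lower stayed between 25 and 34, while 3.85% to 6.06% of all genes tested were called. Of the 34 liver calls, 22 held in every such fit. Those 22 were Irf7, Ifit1, Ifit2, Ifit3, Ifit3b, Oas1a, Oas1g, Oas2, Oas3, Oasl2, Cmpk2, Usp18, Trim30a, Parp14, Gbp3, Igtp, Slfn8, Slfn9, Ifi44, Rtp4, Xaf1 and Cxcl10. The other 12 liver calls were each lost in at least 1 such fit. Without wild-type kidneys 1 and 3, the libraries whose mitochondrial share stood apart, 32 genes were lower in kidney, where 3.51% of all genes were called.

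**Figure D2:**
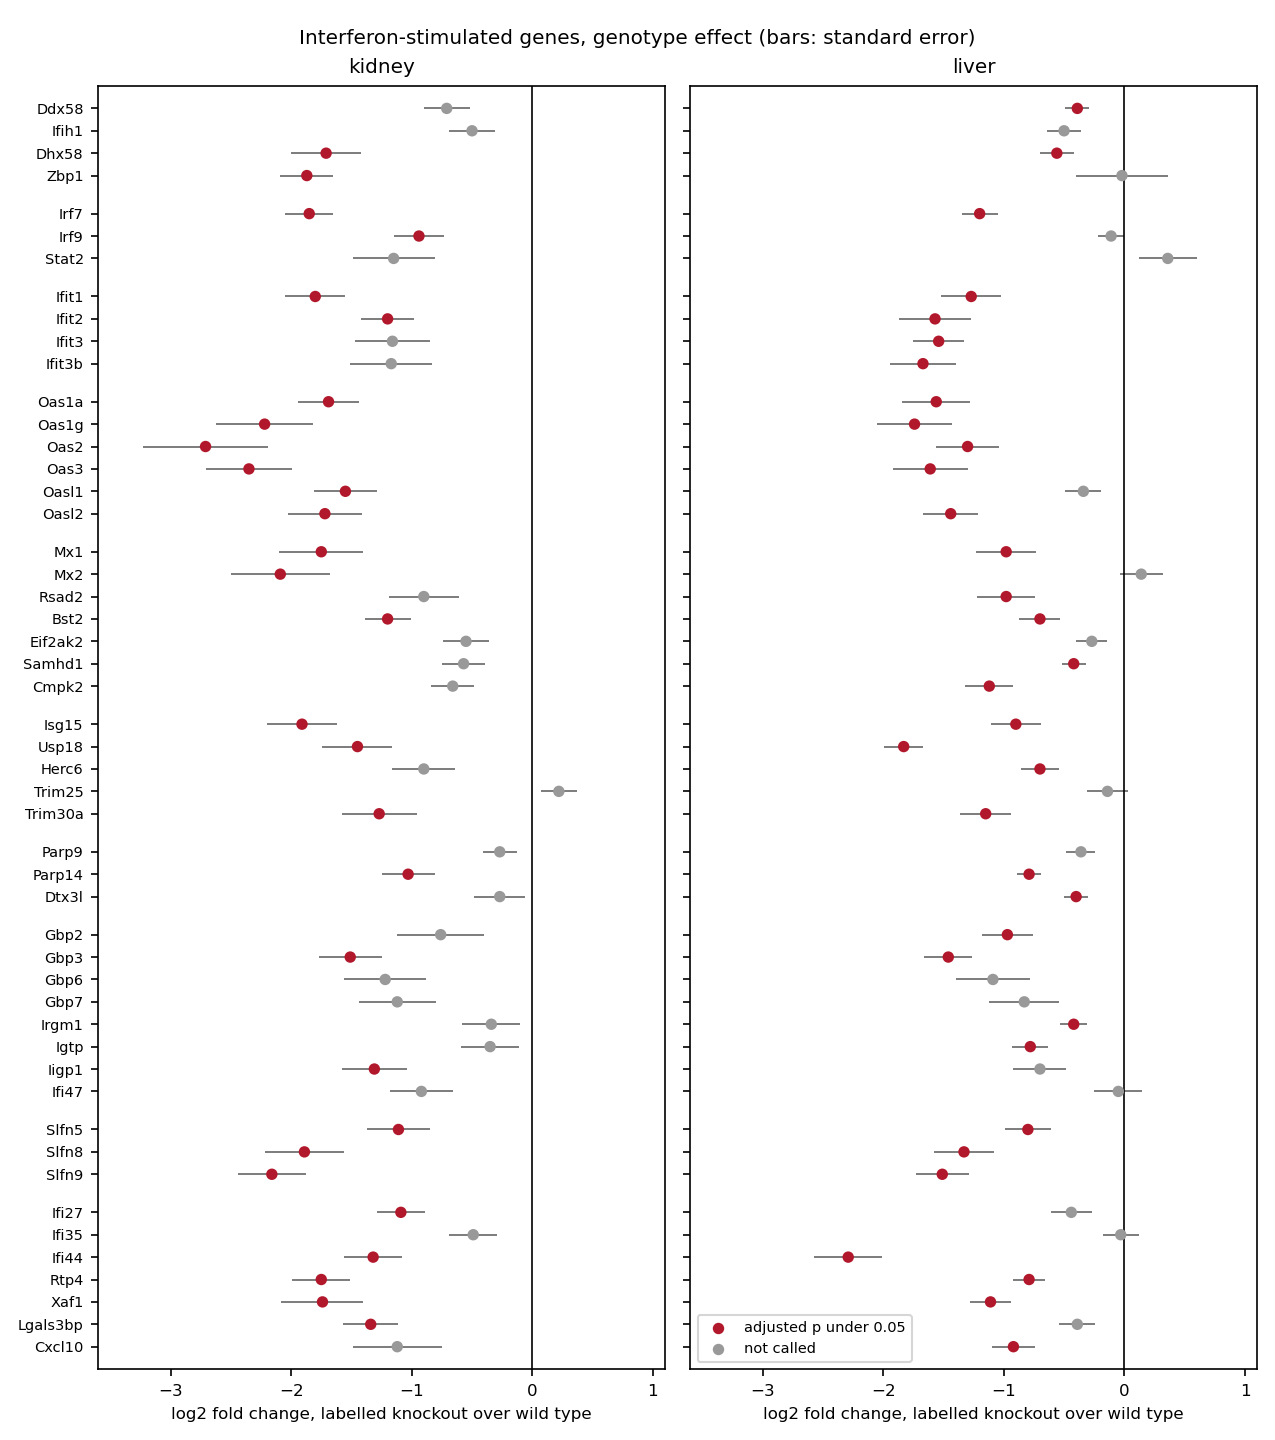
Log2 fold change, labelled knockout over wild type, of each of the 50 genes in kidney (left) and liver (right), grouped by role, with the standard error as a bar. Red points are called at an adjusted p under 0.05, 29 in kidney and 34 in liver, and all of them lie left of the line at 0.

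Among the sensors of viral nucleic acid, 2 of 4 were lower in kidney and 2 of 4 in liver. Dhx58, which encodes the regulator LGP2, was lower in both tissues, with fold changes of -1.71 (SE 0.29) in kidney and -0.56 (SE 0.14) in liver. The liver call of Dhx58 was lost in 8 of the 10 fits without 1 library, with an edgeR adjusted p of up to 0.0996. Ddx58, which encodes the RNA sensor RIG-I, had -0.71 in kidney, where it was not called, and -0.39 (SE 0.10) in liver, where it was. The liver call of Ddx58 held in 3 of the 10 fits without 1 library, with an edgeR adjusted p of up to 0.0973. Ifih1, which encodes the long RNA sensor MDA5, was called in neither tissue, with -0.50 in each.

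Zbp1 (ENSMUSG00000027514, mm10 chromosome 2, 173206612 to 173218923, minus strand) encodes a sensor of Z-form nucleic acid that can trigger cell death. It had 1.41, 1.81, 1.89, 1.32 and 1.28 CPM in labelled knockout kidneys, against 5.10, 7.42, 5.17, 5.54 and 5.07 CPM in wild-type kidneys. The kidney groups were far apart, and Zbp1 fell by 1.87 on the log2 scale (SE 0.22, edgeR adjusted p = 0.00208). The liver values were 6.33, 9.94, 8.39, 24.8 and 31.2 CPM in labelled knockout, against 14.0, 14.2, 18.5, 22.5 and 12.6 CPM in wild type. Labelled knockout livers 1, 2 and 3 lay below every wild-type liver, and labelled knockout livers 4 and 5 lay above every one. The liver fold change was -0.02 (SE 0.38, edgeR adjusted p = 0.985).

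Of the transcription factors of the response, 2 of 3 were lower in kidney and 1 of 3 in liver. Irf7 (ENSMUSG00000025498, chromosome 7, 141262706 to 141266481, minus strand), a factor that amplifies the production of type I interferon, was lower in both. It had 7.03, 9.42, 10.2, 6.74 and 6.69 CPM in labelled knockout kidneys, against 27.9, 40.0, 30, 25.8 and 21.4 CPM in wild-type kidneys. Labelled knockout livers had 21.3, 22, 29.0, 36.1 and 24.9 CPM, against 75.0, 54.5, 62.7, 58.9 and 56.1 CPM in wild-type livers. No labelled knockout library reached the lowest wild-type library of its tissue. Irf7 fell by 1.85 in kidney (SE 0.20, edgeR adjusted p = 0.00146), the smallest p of the 50 genes there, and by 1.20 in liver (SE 0.15, adjusted p = 0.000636). Its annotated span overlaps that of Phrf1 on the opposite strand by 45 bases, and whether counting used strand is not given in the sources used here.

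Irf9, the DNA-binding partner of Stat2, was lower in kidney alone (-0.94, SE 0.21), with -0.11 in liver. Stat2 was called in neither tissue, with -1.15 (SE 0.34, edgeR adjusted p = 0.0948) in kidney and 0.36 (SE 0.24, 0.437) in liver. The call of Irf9 was lost without any labelled knockout kidney and without wild-type kidney 4 or 5, with an edgeR adjusted p of up to 0.112.

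The Ifit proteins bind the ends of foreign RNA. Their 4 genes lie side by side on chromosome 19 (34550694 to 34650009), and 2 of 4 were lower in kidney and 4 of 4 in liver. Ifit1 (ENSMUSG00000034459, 34640871 to 34650009, plus strand) had 2.23, 4.08, 4.07, 2.71 and 2.67 CPM in labelled knockout kidneys, against 7.44, 15.5, 10.5, 10.8 and 10.9 CPM in wild-type kidneys. Liver levels stood at 5.20, 9.10, 9.26, 6.39 and 2.85 CPM in labelled knockout, against 17, 14.0, 17.3, 16.5 and 14.2 CPM in wild type. The genotypes did not overlap in either tissue. Ifit1 fell by 1.80 in kidney (SE 0.25, edgeR adjusted p = 0.00374) and by 1.27 in liver (SE 0.25, adjusted p = 0.0103).

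Ifit3 (ENSMUSG00000074896, 34583531 to 34588731, plus strand) had 7.96, 23, 25, 7.65 and 13.4 CPM in labelled knockout kidneys, against 38.6, 37.5, 31.6, 33.8 and 30.7 CPM in wild-type kidneys. The liver values were 6.59, 10.8, 13.9, 8.41 and 5.94 CPM in labelled knockout, against 28.0, 24.2, 23.7, 31.5 and 25.1 CPM in wild type. All labelled knockout libraries lay below all wild-type libraries in both tissues, and the labelled knockout kidneys spread widely, with mice 2 and 3 high and mice 1 and 4 low. Ifit3 fell by 1.54 in liver (SE 0.21, edgeR adjusted p = 0.000915), while the kidney value of -1.16 (SE 0.31) missed the threshold (adjusted p = 0.0682). In a fit with a replicate block for title number, a pairing that was not shown, the kidney value was -1.56 and passed (edgeR adjusted p = 0.0187). Without labelled knockout kidney 2 it passed as well (edgeR adjusted p = 0.049). Ifit3 and Ifit3b share 51.2% and 45.0% of their 50-base words with other genes, nearly all with each other, so how reads were split between them is uncertain.

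Oligoadenylate synthetases make a messenger that activates an RNA-cutting enzyme. In their family, which here includes the synthetase-like genes Oasl1 and Oasl2, 6 of 6 genes were lower in kidney and 5 of 6 in liver. Oas1a, Oas1g, Oas2 and Oas3 lie together on chromosome 5 (120730333 to 120907521). Oas2 had the largest negative kidney fold change of the 50 genes, -2.71 (SE 0.52), with -1.30 (SE 0.26) in liver, and Oas3 had -2.35 (SE 0.36) and -1.61 (SE 0.31). Wild-type kidney 3 held 30.8 CPM of Oas2, against 5.40 to 7.89 CPM in the other wild-type kidneys, and without that library Oas2 had -1.95 and Oas3 the largest negative value, -2.36. The kidney call of Oas2 was lost without labelled knockout kidney 1, 4 or 5, with an edgeR adjusted p of up to 0.0716. Oas1g had -2.22 (SE 0.40) and -1.74 (SE 0.31), and Oasl2 -1.72 (SE 0.31) and -1.44 (SE 0.23). The kidney calls of Oas1g and Oasl2 each held in 9 of the 10 fits without 1 library.

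Oas1a (ENSMUSG00000052776, 120896256 to 120907521, minus strand) had 1.75, 2.23, 2.63, 2.15 and 1.08 CPM in labelled knockout kidneys, against 5.32, 7.85, 6.52, 5.93 and 6.11 CPM in wild-type kidneys. Labelled knockout livers had 1.09, 2.05, 2.19, 3.53 and 3.82 CPM, against 7.84, 7.05, 5.98, 7.73 and 9.02 CPM in wild-type livers. The groups did not overlap, and labelled knockout mouse 5 was the lowest kidney and the highest liver of its genotype. Oas1a fell by 1.69 in kidney (SE 0.25, edgeR adjusted p = 0.00668) and by 1.56 in liver (SE 0.28, adjusted p = 0.00516). Of its 50-base words, 57.6% are shared with Oas1g, so the split of reads between this pair is uncertain.

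Oasl1 (ENSMUSG00000041827, chromosome 5, 114923240 to 114937915, plus strand), which in mouse restrains the translation of Irf7, is given for the difference between the tissues, whose call was lost with mouse as a replicate block. It had 1.37, 1.57, 2.48, 1.28 and 1.08 CPM in labelled knockout kidneys, against 4.08, 4.68, 5.05, 3.66 and 5.30 CPM in wild-type kidneys. Liver levels stood at 8.20, 12.5, 10.4, 12.3 and 12.7 CPM in labelled knockout, against 13.7, 14.3, 13.9, 17.8 and 11.6 CPM in wild type. The kidney groups were separate, and in liver wild-type mouse 6 lay among the labelled knockout libraries. The kidney value fell by 1.55 (SE 0.26, edgeR adjusted p = 0.012), and the liver value of -0.34 (SE 0.15) was not called (adjusted p = 0.222).

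Of the other antiviral effectors, 3 of 7 were lower in kidney and 5 of 7 in liver. Bst2, which encodes the membrane protein tetherin that holds budding virus on the cell, was lower by -1.20 (SE 0.19) in kidney and -0.70 (SE 0.17) in liver. Mx1, a dynamin-like GTPase gene that is defective in many laboratory strains, was lower by -1.75 (SE 0.35) and -0.98 (SE 0.25). Rsad2, which encodes viperin, and its neighbour Cmpk2, a nucleotide kinase gene, were lower in liver alone, by -0.98 (SE 0.24) and -1.12 (SE 0.20), with -0.90 and -0.66 in kidney. Samhd1, which degrades the building blocks of DNA, was lower in liver by -0.42 (SE 0.10). The liver calls of Mx1, Rsad2, Bst2 and Samhd1 held in 3, 5, 5 and 5 of the 10 fits without 1 library. The kidney call of Mx1 held in 6 of 10. Eif2ak2, which encodes the kinase PKR, was called in neither tissue, with -0.55 in kidney and -0.27 in liver.

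Mx2 (ENSMUSG00000023341, chromosome 16, 97535308 to 97560900, plus strand), the neighbour of Mx1, had 0.789, 1.05, 0.37, 0.716 and 0.574 CPM in labelled knockout kidneys, against 2.07, 6.35, 2.47, 2.66 and 1.59 CPM in wild-type kidneys. The liver values were 6.55, 6.16, 8.22, 9.57 and 8.72 CPM in labelled knockout, against 10.2, 6.83, 6.68, 5.68 and 6.32 CPM in wild type. The kidney groups did not overlap, with wild-type mouse 3 far above the rest, and the liver groups were mixed. Mx2 fell by 2.09 in kidney (SE 0.41, edgeR adjusted p = 0.0222) and had 0.14 in liver (SE 0.18, adjusted p = 0.723). The kidney call was lost without labelled knockout kidney 1, 3, 4 or 5, with an edgeR adjusted p of up to 0.0747. The deposited annotation lists Mx2 as a polymorphic pseudogene, so its counts do not show that a working protein is made.

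In the Isg15 system and the Trim ligases, 3 of 5 genes were lower in kidney and 4 of 5 in liver. Isg15 itself was lower by -1.91 (SE 0.29) in kidney and -0.90 (SE 0.21) in liver. Herc6, the ligase that attaches Isg15 in mouse, was lower in liver (-0.70, SE 0.16) and had -0.90 in kidney. Trim30a was lower by -1.27 (SE 0.31) and -1.15 (SE 0.21). Its kidney call held in 3 of the 10 fits without 1 library, with an edgeR adjusted p of up to 0.132. The liver calls of Isg15 and Herc6 held in 7 and 6 of 10. Trim25, a ubiquitin ligase that activates RIG-I, was the only gene of the 50 with a kidney value above 0, at 0.22 (SE 0.15, edgeR adjusted p = 0.409), and had -0.14 in liver (SE 0.17, adjusted p = 0.702).

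Usp18 (ENSMUSG00000030107, chromosome 6, 121245906 to 121270917, plus strand) encodes the protease that removes Isg15 and damps the type I receptor, and had the smallest liver p of the 50 genes. Labelled knockout livers had 7.04, 8.09, 9.96, 9.22 and 7.25 CPM, against 25.5, 21.6, 30.5, 36.8 and 33.2 CPM in wild-type livers. In kidney it had 2.16, 2.37, 3.74, 2.11 and 1.05 CPM in labelled knockout, against 5.87, 7.85, 5.90, 6.14 and 5.53 CPM in wild type. The lowest wild-type liver held more than any labelled knockout liver, and the same was true of the kidneys. Usp18 fell by 1.83 in liver (SE 0.16, edgeR adjusted p = 3.27e-05) and by 1.45 in kidney (SE 0.29, adjusted p = 0.0237). The kidney call was lost without labelled knockout kidney 1 or 4 or wild-type kidney 5, with an edgeR adjusted p of up to 0.0797.

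Parp14, Dtx3l and Parp9 lie together on chromosome 16 (35832874 to 35972605). Parp9 and Dtx3l form a complex that modifies ubiquitin, and Parp14 adds single ADP-ribose groups to proteins. Of the 3 genes, 1 was lower in kidney and 2 in liver. Parp14 (ENSMUSG00000034422, 35832874 to 35871544, minus strand) had 10.5, 14.4, 14.6, 8.89 and 7.66 CPM in labelled knockout kidneys, against 24.8, 30.4, 20.1, 19.1 and 20.3 CPM in wild-type kidneys. Liver levels stood at 20.8, 24.7, 23.3, 28.4 and 22.3 CPM in labelled knockout, against 37.9, 39.2, 41.7, 42.7 and 45.4 CPM in wild type. The groups were separate in both tissues and close within each liver group. Parp14 fell by 0.79 in liver (SE 0.10, edgeR adjusted p = 0.000745) and by 1.03 in kidney (SE 0.22, adjusted p = 0.0284). Without labelled knockout kidney 1, 4 or 5 the kidney call was lost, with an edgeR adjusted p of up to 0.0938.

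Dtx3l (ENSMUSG00000049502, 35926511 to 35939151, minus strand) had the largest kidney p of the 50 genes. It had 9.36, 7.26, 6.18, 9.45 and 6.75 CPM in labelled knockout kidneys, against 9.47, 6.51, 8.83, 8.74 and 13.3 CPM in wild-type kidneys. The liver values were 35.9, 36.5, 34.8, 29.8 and 29.3 CPM in labelled knockout, against 37.0, 45.0, 47.0, 44.3 and 45.7 CPM in wild type. The kidney groups were mixed, and the liver groups were separated by a narrow gap. Dtx3l had -0.27 in kidney (SE 0.21, edgeR adjusted p = 0.474) and fell by 0.40 in liver (SE 0.10, adjusted p = 0.0399). The liver call was lost in 9 of the 10 fits without 1 library, with an edgeR adjusted p of up to 0.117. Parp9 was called in neither tissue (-0.27 in kidney, -0.36 in liver), and the spans of Parp9 and Dtx3l overlap on opposite strands by 682 bases.

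The interferon-inducible GTPases attack the compartments of intracellular parasites and bacteria. Of their genes, 2 of 8 were lower in kidney and 4 of 8 in liver. Gbp3 (ENSMUSG00000028268, chromosome 3, 142560026 to 142573209, plus strand) had 7.03, 8.69, 7.84, 5.20 and 3.78 CPM in labelled knockout kidneys, against 11.3, 27.1, 18.7, 18.3 and 17.4 CPM in wild-type kidneys. Labelled knockout livers had 5.35, 4.53, 8.26, 3.85 and 3.90 CPM, against 14.0, 12.8, 13.0, 17.6 and 13.8 CPM in wild-type livers. No library of one genotype entered the range of the other. Gbp3 fell by 1.46 in liver (SE 0.20, edgeR adjusted p = 0.00119) and by 1.51 in kidney (SE 0.26, adjusted p = 0.0127), where the call was lost without labelled knockout kidney 4 (0.0503).

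Irgm1 (ENSMUSG00000046879, chromosome 11, 48861968 to 48871683, minus strand), a GTPase that keeps the other members in check, had 46.2, 39.7, 33.3, 42.0 and 44.7 CPM in labelled knockout kidneys, against 42.4, 28.1, 49.9, 56.4 and 84.0 CPM in wild-type kidneys. Liver levels stood at 52.3, 54.7, 58.8, 60.5 and 44.9 CPM in labelled knockout, against 69.6, 71.5, 76.6, 82.4 and 63.5 CPM in wild type. The kidney groups were mixed, with wild-type mouse 3 the lowest of all and wild-type mouse 6 the highest. The liver groups were separate. Irgm1 had -0.34 in kidney (SE 0.24, edgeR adjusted p = 0.42) and fell by 0.42 in liver (SE 0.11, adjusted p = 0.0399), a call lost in 8 of the 10 fits without 1 library (up to 0.103).

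Of the other GTPase genes, Igtp and Gbp2 were lower in liver, by -0.78 (SE 0.15) and -0.97 (SE 0.21), and had -0.35 and -0.76 in kidney. The liver call of Gbp2 held in 9 of the 10 fits without 1 library. Iigp1 was lower in kidney by -1.31 (SE 0.27) and had -0.70 in liver. Its kidney call held in 5 of the 10 fits without 1 library, with an edgeR adjusted p of up to 0.0814. Gbp6, Gbp7 and Ifi47 were called in neither tissue, with kidney values of -1.22, -1.12 and -0.92 and liver values of -1.09, -0.83 and -0.05. Gbp6 shares 70.7% of its 50-base words with other genes, most of them with the overlapping annotation Gm43302. Igtp overlaps Irgm2 on the same strand over 7974 bases, so its counts are uncertain.

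The Schlafen genes limit translation and growth, and 3 of 3 were lower in both tissues. Slfn5, Slfn9 and Slfn8 lie together on chromosome 11 (82951349 to 83020810). Slfn9 (ENSMUSG00000069793, 82978390 to 82991830, minus strand) had 0.686, 0.698, 1.07, 0.904 and 0.574 CPM in labelled knockout kidneys, against 2.27, 4.09, 3.35, 4.05 and 3.93 CPM in wild-type kidneys. The liver values were 1.95, 1.47, 2.73, 2.80 and 1.89 CPM in labelled knockout, against 4.89, 6.54, 4.75, 7.99 and 6.78 CPM in wild type. Every wild-type library was above every labelled knockout library of its tissue. Slfn9 fell by 2.16 in kidney (SE 0.28, edgeR adjusted p = 0.0025) and by 1.51 in liver (SE 0.22, adjusted p = 0.00148). Slfn8 had -1.89 (SE 0.33) in kidney and -1.33 (SE 0.25) in liver, and Slfn5 had -1.11 (SE 0.26) and -0.80 (SE 0.19). The Slfn5 call held in 3 of the 10 fits without 1 library in each tissue. Its edgeR adjusted p was up to 0.122 in kidney and 0.0765 in liver.

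The remaining 7 genes have various products, and 5 of them were lower in kidney and 4 in liver. Ifi44 (ENSMUSG00000028037, chromosome 3, 151730922 to 151749960, minus strand), which encodes a cytoplasmic protein induced by interferon, had the largest negative liver fold change of the 50 genes. It had 0.899, 2.39, 2.56, 1.88 and 0.964 CPM in labelled knockout livers, against 7.18, 7.31, 9.98, 8.86 and 8.99 CPM in wild-type livers. In kidney it had 4.35, 4.96, 7.55, 4.29 and 2.60 CPM in labelled knockout, against 12.1, 12.1, 12.1, 11.5 and 11.7 CPM in wild type. No labelled knockout library reached the wild-type range in either tissue. Ifi44 fell by 2.29 in liver (SE 0.28, edgeR adjusted p = 0.00045) and by 1.32 in kidney (SE 0.24, adjusted p = 0.0144), where the call was lost without labelled knockout kidney 4 (0.0585).

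Rtp4 (ENSMUSG00000033355, chromosome 16, 23520291 to 23614222, plus strand), which encodes a protein that helps receptors reach the cell surface, had 2.78, 3.39, 4.03, 2.98 and 1.62 CPM in labelled knockout kidneys, against 8.18, 11.2, 9.6, 10.2 and 10.7 CPM in wild-type kidneys. Labelled knockout livers had 14.9, 15.0, 15.7, 14.6 and 11.7 CPM, against 30.8, 22.1, 27.1, 22.2 and 21.7 CPM in wild-type livers. Both tissues showed separate groups, and labelled knockout mouse 5 was the lowest in each. Rtp4 fell by 1.75 in kidney (SE 0.24, edgeR adjusted p = 0.00336) and by 0.79 in liver (SE 0.13, adjusted p = 0.00287). Its annotated span overlaps Gm45338 on the same strand over 39791 bases and Masp1 on the opposite strand over 525 bases, and Masp1 had a mean of 2362 counts per library against 372 for Rtp4.

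Ifi35 (ENSMUSG00000010358, chromosome 11, 101448407 to 101458698, plus strand) was called in neither tissue. It had 12.2, 17.4, 16.9, 12.5 and 16.8 CPM in labelled knockout kidneys, against 14.5, 28.6, 20.9, 23 and 19.6 CPM in wild-type kidneys. Liver levels stood at 27.6, 25.2, 35.4, 33.2 and 38.5 CPM in labelled knockout, against 36.2, 28.6, 32.8, 39.8 and 25.6 CPM in wild type. In kidney wild-type mouse 1 lay among the labelled knockout libraries, and the liver groups were mixed. Ifi35 had -0.49 in kidney (SE 0.20, edgeR adjusted p = 0.197) and -0.03 in liver (SE 0.15, adjusted p = 0.937). Xaf1, a gene that promotes cell death, was lower by -1.74 (SE 0.34) in kidney and -1.11 (SE 0.17) in liver. Ifi27 and Lgals3bp were lower in kidney alone, by -1.09 (SE 0.20) and -1.34 (SE 0.23), with -0.44 and -0.39 in liver. The kidney calls of Xaf1, Ifi27 and Lgals3bp held in 7, 6 and 9 of the 10 fits without 1 library. In those fits their edgeR adjusted p was up to 0.0732, 0.0724 and 0.0509. Cxcl10, which encodes a chemokine that draws activated T cells, was lower in liver by -0.92 (SE 0.18) and had -1.12 in kidney (SE 0.37, edgeR adjusted p = 0.128). The whole span of Cxcl10, 2252 bases, overlaps Art3 on the opposite strand. Art3 had a mean of 57.5 counts per library against 139 for Cxcl10, and whether counting used strand is not given.

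**Figure D3:**
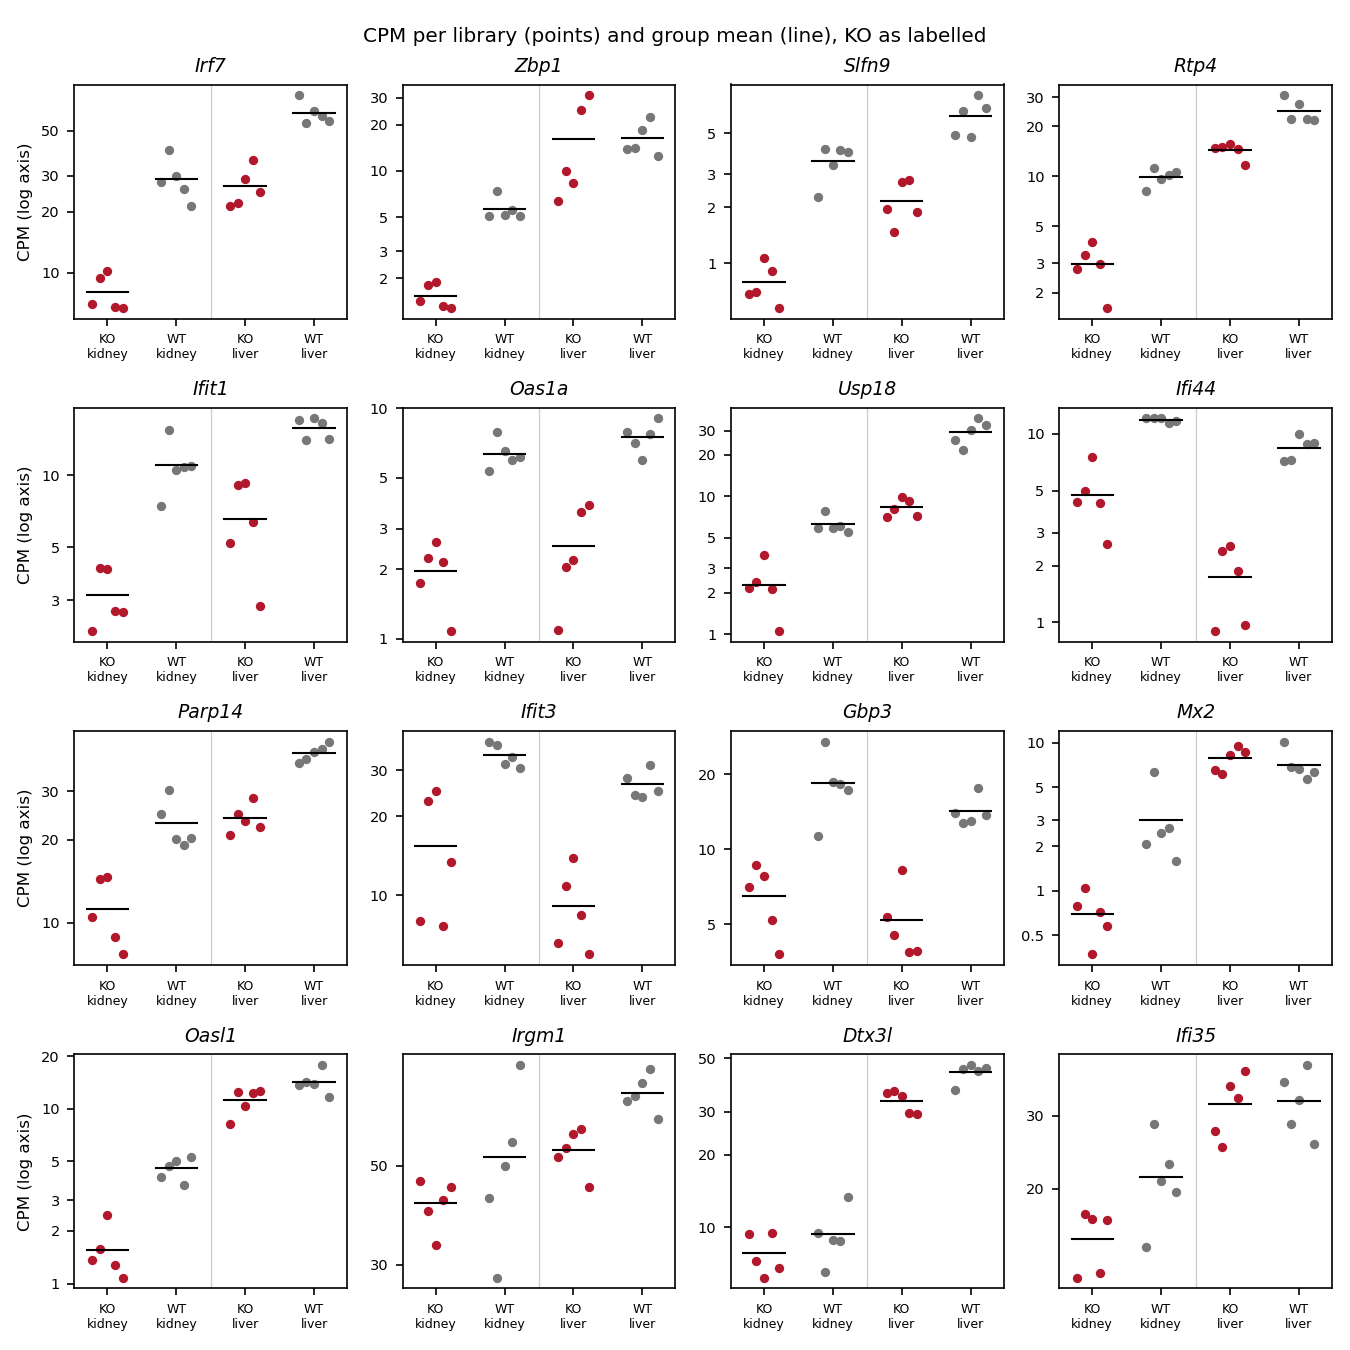
CPM on log axes of 16 of the genes in each library (points) with the group mean (line), for labelled knockout (KO, red) and wild type (WT, grey) in kidney and liver. Irf7, Slfn9, Rtp4 and Gbp3 show separate groups in both tissues, while Mx2 and Oasl1 do so in kidney alone.

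The second question is whether the genotype effect depended on the tissue. Called lower in both tissues were 22 of the 50 genes, against 0.683% of the 13912 genes tested in both. Called in kidney alone were 7 (Ifi27, Iigp1, Irf9, Lgals3bp, Mx2, Oasl1 and Zbp1), in liver alone 12, and in neither 9. A call in one tissue alone does not show a difference between them, and the difference itself was called for 2 of the 50 genes, against 1.51% of 17606 genes. The kidney effect minus the liver effect was -2.19 for Mx2 (SE 0.43, edgeR adjusted p = 0.0084) and -1.19 for Oasl1 (SE 0.28, adjusted p = 0.0347). With mouse as a replicate block, Mx2 stayed called (-2.09, edgeR adjusted p = 0.0356) and Oasl1 did not (-1.21, adjusted p = 0.0915), so the count was 1. The Oasl1 call held in 8 of the 20 fits without 1 library. Zbp1 had -1.83 (SE 0.48, edgeR adjusted p = 0.0538).

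The number of differences called depended on single libraries. It was 1 without labelled knockout kidney 1, 4 or 5, wild-type kidney 4, labelled knockout liver 4 or 5 or wild-type liver 3, 4 or 6. In these fits 0.921% to 1.20% of all genes were called. It was 4 without labelled knockout liver 1 and 6 without wild-type kidney 6, beside 1.24% and 2.72% of all genes. At an unadjusted p under 0.05, 13 genes had a larger negative effect in kidney and 1 in liver. The share of all genes at that unadjusted threshold is not given here. DESeq2 called 7 and limma voom 5, all with the larger negative effect in kidney, where they called 3.47% and 3.87% of all genes.

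Across the 50 genes, the kidney value was the more negative one in 37 (74.0%), beside 53.2% of the genes tested in both tissues. In the joint fit of all 20 libraries the difference was below 0 for 36 of the 50, with a median of -0.27, beside -0.04 over all genes. Kidney and liver fold changes had Pearson's r = 0.448 and Spearman's rho = 0.474 over the 50 genes, beside 0.221 and 0.192 over the 13912 genes tested in both. These are descriptions across genes, which are not independent of each other, and the kidney and liver libraries of equal genotype and number are taken to come from the same mouse. Both values were below 0 for 47 of the 50 (94.0%), beside 30.3% of all genes.

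**Figure D4:**
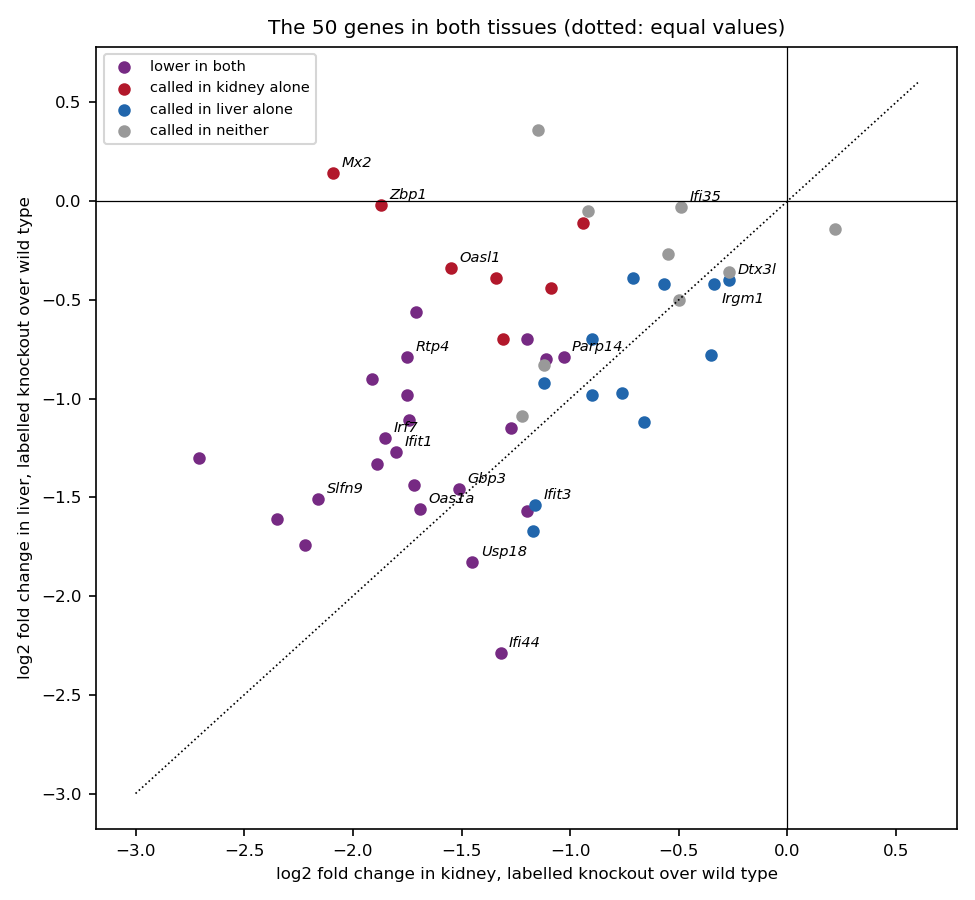
Log2 fold change, labelled knockout over wild type, of the 50 genes in kidney (horizontal) and liver (vertical), coloured by where they were called, with equal values on the dotted line. Of the 50 points, 47 lie in the lower left corner, and Mx2 and Zbp1 stand out with kidney values of -2.09 and -1.87 beside liver values of 0.14 and -0.02.

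Levels per length, as FPKM from the counts and the gene lengths of the count table, spread widely within the set. In liver Bst2 was the most abundant, with a mean of 206 FPKM in labelled knockout and 353 FPKM in wild type, followed by Iigp1 with 80.0 and 138 FPKM. In kidney Ifi27 led with 23.7 FPKM in labelled knockout and 53.0 FPKM in wild type, followed by Bst2 with 15.6 and 37.6 FPKM. Oas3 was the least abundant in all 4 groups, with 0.0329 FPKM in labelled knockout and 0.179 FPKM in wild-type kidney, and 0.123 and 0.403 FPKM in liver. The median gene had 1.48 FPKM in labelled knockout and 3.49 FPKM in wild-type kidney, and 2.31 and 4.44 FPKM in liver. The lowest count of any of the 50 genes in a library was 4 in labelled knockout kidney, so the lowest levels carry the widest counting error.

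Between the wild-type tissues, 21 of the 50 genes had more FPKM in every liver than in any kidney, 3 had less, and 26 overlapped. Of all genes tested for the difference between tissues, 10.9% were above in every wild-type liver and 36.6% were below. Iigp1 had the widest gap, with a mean 24.4 times as high in wild-type liver. Slfn5, Rsad2 and Cmpk2 were the 3 that were lower in every wild-type liver, at 0.303, 0.397 and 0.481 times the kidney mean.

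The mean log2 CPM over the 50 genes, after TMM scaling, was taken for each library. Labelled knockout kidneys stood at 1.69 to 2.40, against 3.15 to 3.52 in wild-type kidneys, and labelled knockout livers at 3.35 to 3.91, against 4.49 to 4.64 in wild-type livers. The genotypes were apart in both tissues, and the wild-type livers were the closest together (SD 0.06, n = 5). Labelled knockout kidney 5 was the lowest of its group and held the lowest value for 32 of the 50 genes. Among labelled knockout livers, mouse 1 was lowest for 25 genes and mouse 5 for 16. Wild-type kidney 3, the library with the high mitochondrial share, was the highest of its group at 3.52 and held the highest value for 26 genes. That place depended on the scaling: by plain library size, without TMM, it had the lowest mean of its group, 3.55, and held the highest value for 16 genes and the lowest for 23. On that scale labelled knockout kidneys stood at 1.79 to 2.67, against 3.55 to 3.81 in wild-type kidneys, and labelled knockout livers at 3.01 to 3.49, against 4.25 to 4.40 in wild-type livers.

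**Figure D5:**
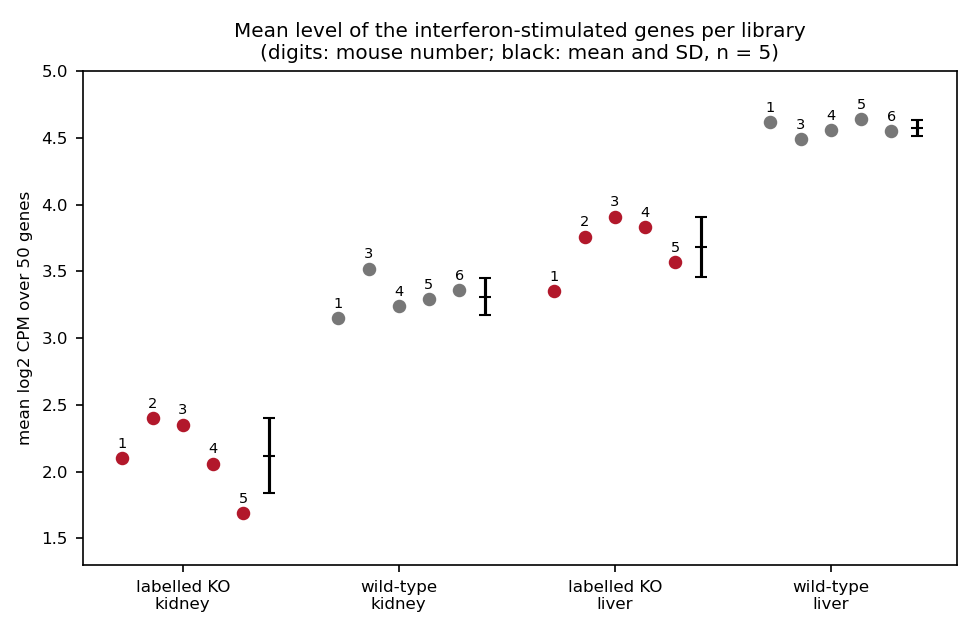
Mean log2 CPM, with TMM scaling, over the 50 genes in each library (points, with the mouse number), and the mean and SD of each group of 5 (black). Labelled knockout kidneys lie between 1.69 and 2.40 and labelled knockout livers between 3.35 and 3.91, below the wild-type libraries of the same tissue.

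The rest of the pathway was followed in 44 further genes, from ligands to inhibitors. Of 33 tested in kidney, 1 was lower and 0 were higher (9 lower and 0 higher at an unadjusted p under 0.05, 3 lower by DESeq2 and 5 by limma voom). In a fit with a replicate block for title number the kidney count was 3, and with all 20 libraries in 1 fit it was 4. Those fits called 5.47% and 5.38% of all genes. Of 31 tested in liver, 5 were lower and 1 was higher. Among all genes tested, 1.87% were called lower and 0.394% higher in kidney, and 4.08% and 1.94% in liver. DESeq2 called 5.12% and limma voom 8.18% of all genes lower in kidney, and the share at an unadjusted p is not given here. The median log2 fold change of the pathway genes was -0.16 in both tissues. Without wild-type liver 6 the liver count of 6 was 1, without labelled knockout liver 4 or wild-type liver 3 it was 2, and without labelled knockout liver 1 or wild-type liver 4 or 5 it was 3. Without labelled knockout livers 4 and 5 together it was 0. Of all genes, 3.85% to 6.06% were called in the liver fits without 1 library, and 4.14% without labelled knockout livers 4 and 5.

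No interferon gene among 9 passed the filter on low counts. Their summed level was 0 to 0.203 CPM in labelled knockout and 0 to 0.347 CPM in wild-type kidneys, and 0.0749 to 0.252 CPM in labelled knockout and 0 to 0.388 CPM in wild-type livers. Ifnb1, Ifna1, Ifna2, Ifne and Ifnl2 had 0 counts in all 20 libraries, and the highest count of any of the 9 in a library was 9. Ligand transcripts were thus at or near the limit of detection at this depth, and no difference could be tested.

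Receptor transcripts were detected in both tissues. Ifnar1 and Ifnar2, the chains of the type I receptor, averaged 34.3 ± 3.85 and 17 ± 2.67 CPM in labelled knockout kidney, against 36.4 ± 1.74 and 19.0 ± 1.59 CPM in wild-type kidney. In liver they averaged 29.6 ± 3.26 and 46.3 ± 4.77 CPM in labelled knockout, against 33.5 ± 0.972 and 50.5 ± 4.75 CPM in wild type (SD, n = 5). Neither was called, with fold changes between -0.09 and -0.18. Ifngr1, a chain of the type II receptor, was lower in liver (-0.38, SE 0.10, edgeR adjusted p = 0.0352) and had -0.05 in kidney, and Ifngr2 had 0.25 in kidney and -0.24 in liver. Il10rb, a chain of the type III receptor, was lower in liver (-0.61, SE 0.17, edgeR adjusted p = 0.0494) and had -0.27 in kidney. Ifnlr1 had -0.20 in kidney (SE 0.41) and too few counts for the test in liver.

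Jak1, Jak2 and Tyk2 were not called, with kidney values of 0.20, 0.09 and -0.57 and liver values of -0.07, -0.21 and -0.02. Irf5, a factor of inflammatory gene expression, was the only pathway gene called higher, in liver (0.74, SE 0.20, edgeR adjusted p = 0.044). Irf1 had -0.77 in kidney (SE 0.22, edgeR adjusted p = 0.0806) and 0.08 in liver. The inhibitors Socs1 and Socs3 were not called, with -1.0 and -0.91 in kidney and 0.01 and 1.31 in liver.

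Among the upstream sensors, Mb21d1, which encodes the DNA sensor cGAS, was lower in kidney (-2.04, SE 0.30, edgeR adjusted p = 0.00571). It stood at 6 to 9 counts per library in labelled knockout and 23 to 44 in wild-type kidneys, so it is a low gene, and it dropped out under a filter at a mean of 1 CPM. In liver Mb21d1 had -0.29 (SE 0.43). Tlr7, an endosomal RNA receptor gene, was lower in liver (-1.23, SE 0.27, edgeR adjusted p = 0.0191), and so was Rnaseh2b, a subunit of an enzyme that clears RNA from DNA (-0.65, SE 0.14, 0.0171). Ch25h, which makes an oxysterol and is itself induced by interferon, had -1.17 in kidney (SE 0.43, edgeR adjusted p = 0.163) and too few counts in liver.

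Markers of other cell types were followed in both tissues, and some of them were called. Among all genes tested, 1.87% were called lower and 0.394% higher in kidney, and 4.08% and 1.94% in liver. DESeq2 called 5.12% of all genes lower in kidney and 5.87% in liver, and limma voom 8.18% and 5.14%. For the marker counts at an unadjusted p under 0.05, the share of all genes is not given here. Of the T and NK cell markers, 4 of 7 tested were lower in kidney, and 3 of 8 were lower and 1, Cd4, was higher in liver. In kidney 7 of these markers were lower at an unadjusted p under 0.05, 4 by DESeq2 and 7 by limma voom. In liver 7 were lower and 1 was higher at an unadjusted p, and each tool called 3 lower and 1 higher. Their sum was 3.98 to 6.67 CPM in labelled knockout and 8.72 to 17.1 CPM in wild-type kidneys, and 4.40 to 6.83 CPM in labelled knockout and 7.04 to 9.39 CPM in wild-type livers. Of the B cell markers, 0 of 4 were called in kidney (3 lower at an unadjusted p under 0.05, 0 by DESeq2, 1 by limma voom) and 4 of 4 were lower in liver, with sums of 0.709 to 3.66 CPM in labelled knockout and 3.61 to 10.2 CPM in wild-type kidneys, and 2.16 to 4.86 and 7.13 to 11.6 CPM in the livers. Kupffer cell markers were lower in liver for 3 of 3, with a sum of 47.8 to 110.3 CPM in labelled knockout and 119 to 174 CPM in wild type, and Clec4f, the defining marker, had 0 counts in every kidney.

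Plasmacytoid dendritic cells are a main source of type I interferon. Of their 6 markers, 0 of 4 tested were called in kidney (3 lower at an unadjusted p under 0.05, 0 by DESeq2, 1 by limma voom) and 1 of 3, Spib, was lower in liver (-1.62, SE 0.26, edgeR adjusted p = 0.00275). Their sum was 2.86 to 4.69 CPM in labelled knockout and 4.39 to 9.25 CPM in wild-type kidneys, and 1.68 to 2.35 CPM in labelled knockout and 3.21 to 4.53 CPM in wild-type livers, and none of the 6 was at 0 throughout a group. Cox6a2, which was not called, made up most of the kidney sum, with a mean of 2.55 CPM in labelled knockout and 4.64 CPM in wild type. Monocyte and macrophage markers were called for 0 of 6 in kidney (3 lower at an unadjusted p under 0.05, 1 by DESeq2, 1 by limma voom) and were lower for 2 of 6 in liver, with sums of 52.1 to 82.7 CPM in labelled knockout and 72.5 to 130.4 CPM in wild-type kidneys, and 39.3 to 71.0 and 59.2 to 86.0 CPM in the livers. Endothelial markers were lower for 1 of 4, Cdh5, in each tissue. At an unadjusted p under 0.05, by DESeq2 and by limma voom the count was 2 in kidney and 1 in liver. Their sums were 57.8 to 158 CPM in labelled knockout and 135 to 189 CPM in wild-type kidneys, and 27.2 to 76.6 and 55.2 to 85.1 CPM in the livers. Ptprc, which all leukocytes express, had -0.91 in kidney (edgeR adjusted p = 0.0891) and -0.34 in liver (0.186). In kidney Ptprc was lower at an unadjusted p under 0.05 and was called lower by DESeq2 and by limma voom. In liver it was lower at an unadjusted p under 0.05 and was called by neither tool. Of 2 neutrophil markers tested, 0 were called in either tissue (0 at an unadjusted p under 0.05, 0 by DESeq2 and by limma voom). Their sums were 0.629 to 3.65 CPM in labelled knockout and 0.429 to 1.56 CPM in wild-type kidneys, and 1.5 to 18.6 and 2.61 to 4.27 CPM in the livers.

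In kidney Slc22a6, 1 of 4 proximal tubule markers, was higher in labelled knockout (1.11, SE 0.24, edgeR adjusted p = 0.0332). The summed hepatocyte markers there, mostly Cyp2e1 and Ttr, had no gene called (2 higher at an unadjusted p under 0.05, 1 by DESeq2 and 1 by limma voom), and the sums were 1324 to 3176 CPM in labelled knockout and 167 to 1130.0 CPM in wild type. Those sums follow Cyp2e1 and Ttr, which had kidney values of 1.82 (SE 0.44) and 1.04 (SE 0.41). Alb and Apoa1 did not share that rise, with 0.01 (SE 0.29) and -0.84 (SE 0.39) in kidney. In liver 1 of 4 hepatocyte markers, Alb, was lower (-0.75, SE 0.20, edgeR adjusted p = 0.0435). Alb carried most of the summed hepatocyte level, with a mean of 44694 CPM in labelled knockout and 74970.5 CPM in wild-type livers, and Apoa1, Ttr and Cyp2e1 had -0.19, -0.15 and 0.07 and were not called. The part of all these differences in the lower level of the interferon-stimulated genes was not tested.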

How the data were processed

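Counts per gene, the log2 FPKM table and the gene annotation were deposited by the authors. The counts are not normalized, and the submitters' processing notes name HISAT2 2.0.5, StringTie, DESeq2 1.16.1 and mm10 with no role. How reads were assigned to genes, and whether strand was used, is not given in the sources used here. The design text states separate mice. Groups came from the labels.

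Counts were analysed in R 4.3.3 with edgeR 4.0.16 (TMM scaling, filterByExpr with a minimum count of 10, quasi-likelihood F-test), in 10 libraries per tissue and in all 20 for the difference between tissues. P-values were Benjamini-Hochberg adjusted over all genes tested, and a gene was called under 0.05. Low genes carry the widest counting error, and the SD and SE cover the spread between mice. The scripts were tested on simulated data. DESeq2 1.42.0, limma 3.58.1 (voom, and limma-trend on the deposited log2 values of 15454 genes), other scalings and filters, replicate blocks and fits without 1 library were alternatives.

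Deviations from the group mean in labelled knockout and wild-type kidneys of equal title number were compared over 5000 genes. They had r = 0.1979, 0.1003, 0.1574 and 0.269 for numbers 1, 3, 4 and 5. Kidneys of unequal number were not compared, so these values cannot show that the numbers pair the kidneys. Nothing in the labels states such a pairing, and the replicate block for title number is an alternative setting alone. A kidney and a liver with the same genotype and title number were treated as 1 mouse. Their deviations from the group mean had r = 0.4217, -0.03088, -0.2496, -0.2613 and 0.2949 for labelled knockout mice 1 to 5. For wild-type mice 1, 3, 4, 5 and 6, r was -0.2488, -0.003037, -0.01791, 0.5628 and -0.2082. These values do not show the pairing, which rests on the titles, as does the fit with mouse as a replicate block.

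The 16 genes given by library were the 6 with the smallest p in each tissue, those called for the difference between tissues (up to 6), any called higher (up to 4) and the 2 with the largest p in each tissue. A gene that several parts of the rule name appears once. The members and lists were chosen with earlier results of these data known. A gene of the pathway list is not reported here by name, and the counts over the list include it. Shared words are 50-base runs of GENCODE transcripts that also occur in another gene.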

Additional observations from a re-analysis of the deposited data

Results flagged for a closer look

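In 68 groups of 5 libraries, 7 held a library whose gap to its nearest neighbour was large for the range of the group (a ratio above 0.71). Chance gives about 1 in 20 for independent groups with a normal spread. The 68 groups come from the same 20 libraries and are not independent, so the 7 cannot be read as an excess. Wild-type kidney 3 was high in 3 of the 7: Zbp1 at 7.42 CPM, Usp18 at 7.85 CPM and Mx2 at 6.35 CPM. These CPM include the TMM factor, 0.795 for that library, and in FPKM at plain library size wild-type kidney 1 was above it for Zbp1 (1.88 and 1.67) and for Usp18 (2.74 and 2.23). That library also had the mitochondrial share of 50.8%, whose part in these values was not tested. Labelled knockout liver 5 was low for Rtp4 at 11.7 CPM. Wild-type liver 5 was high for Gbp3 at 17.6 CPM. Wild-type liver 1 was high for Mx2 at 10.2 CPM and low for Dtx3l at 37.0 CPM.

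The genotype effect differed between kidney and liver for Mx2, by -2.19 on the log2 scale, and for Oasl1, by -1.19 (kidney minus liver, edgeR). With mouse as a replicate block the Mx2 difference held and the Oasl1 difference did not.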

How the results depend on the processing

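Of 700 alternative values of the 34 log2 fold changes, 623 kept their direction and side of the threshold, 57 lost the call, 8 gained it and 12 turned sign. Those 12 were small: Zbp1 in liver with DESeq2 (0.0025), with DESeq2 size factors (0.005) and without 1 library (a range of -0.39 to 0.20), Mx2 in liver without labelled knockout livers 4 and 5 (-0.02) and Ifi35 in liver without 1 library (-0.10 to 0.05). The kidney count of 29 ran from 13 to 31 without 1 library, and was 38 with DESeq2, 43 with voom, 32 with the replicate block and 40 with all 20 libraries. Of all genes tested in kidney, 2.26% were called in the main fit and 0.589% to 5.51% without 1 library. The share was 6.98% with DESeq2, 13.0% with voom, 5.47% with the block and 5.38% with all 20 libraries. The liver count of 34 fell to 15 with a replicate block for title number and to 22 with all 20 libraries. Livers of equal number had r = -0.04297, -0.06292, -0.05293 and 0.01726, and those of unequal number were not compared. Of all genes tested in liver, 6.02% were called in the main fit, 2.07% with the block and 4.39% with all 20 libraries. The difference between tissues, 2 genes, was 7 with DESeq2, 5 with voom and 4 at a mean of at least 1 CPM, beside 3.47%, 3.87% and 1.91% of all genes. It was 1 without TMM scaling, with mouse as a replicate block or without labelled knockout livers 4 and 5, beside 1%, 1.03% and 0.961%. Without 1 library it was 1 to 6, beside 0.921% to 2.72%. Of the other pathway genes, the kidney count of 1 was 0 at a mean of 1 CPM, where fewer genes were tested, 2 without wild-type kidneys 1 and 3, 3 with DESeq2 or the replicate block, 4 with all 20 libraries and 5 with voom. Their liver count of 6 was 3 on the deposited log2 FPKM values or with all 20 libraries, 0 with the replicate block or without labelled knockout livers 4 and 5, and 1 to 5 without 1 library. Of all genes, 2.31% were called in kidney at a mean of 1 CPM and 3.51% without wild-type kidneys 1 and 3. In liver 3.98% were called on the deposited log2 FPKM values and 4.14% without labelled knockout livers 4 and 5. In kidney the block changed no call among the 16 genes other than that of Ifit3. In liver it ended those of Oas1a, Irgm1 and Dtx3l. Apart from what the fewer genes or samples set, the cause of these changes was not tested. Depth limits the low genes: the lowest count of a member was 4.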

Other observations

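Stat2 and Oas2 were looked at after their values were seen. Stat2 had 71.8, 74.9, 87.0, 132 and 181 CPM in labelled knockout livers, against 101, 88.4, 92.0, 70.3 and 74.3 CPM in wild-type livers. Labelled knockout livers 4 and 5, which also held the highest Zbp1 levels, were above every wild-type liver. In kidney Stat2 had 21.8, 20, 18.1, 16.5 and 11.9 CPM in labelled knockout, against 32.4, 84.8, 31.3, 26.6 and 20.7 CPM in wild type, and wild-type kidney 3 stood far above the rest. The same library had the highest Oas2 level: 0.926, 2.41, 3.07, 1.66 and 0.912 CPM in labelled knockout kidneys, against 7.89, 30.8, 7.60, 7.32 and 5.40 CPM in wild-type kidneys.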
